A study of Solanum lycopersicum with 9 samples.

Results

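Fructokinases and hexokinases are the enzymes that bring free hexoses into metabolism. Of the 802 genes that the platform annotation named on a tomato array of 10038 probe sets, 6 belong to these classes, with 1 probe set each for FRK1, FRK2, FRK3 and FRK4 (fructokinases) and for hxk1 and Hxk2 (hexokinases). They were chosen by symbol. By Entrez identifier, all 6 were also found among the RefSeq genes of SLM_r2.1, a tomato assembly. RefSeq also lists HXK3 and HXK4, which were not analysed here.

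The samples were mesocarp of mature fruit of Solanum lycopersicum cv Money Maker, all grown in the same greenhouse conditions. Wild-type (WT) plants were compared with the lines AS5 and AS17, in which an antisense construct silenced Asr1, a gene named for abscisic acid, stress and ripening. Each group had 3 pools of fruit mesocarp, each on its own Affymetrix array, so n counts pools. The labels leave unclear whether a pool held fruit of 1 plant or of several, and p-values measure only the spread between these pools. Every value below is a deposited log2 expression value of 1 probe set. The sources used here do not give the promoter of the construct, and Asr1 itself was not analysed here, so its silencing was not checked.

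In fruit, imported sucrose is split by invertase into glucose and fructose, or by sucrose synthase into UDP-glucose and fructose. Hexokinases phosphorylate glucose and also fructose, whereas fructokinases act on fructose with high preference. The sugar phosphates then enter glycolysis, starch synthesis or cell wall synthesis. In Arabidopsis, a hexokinase also acts as a glucose sensor apart from its catalytic role. In tomato, FRK1 and FRK2 are known as cytosolic enzymes, FRK3 as a plastid enzyme and FRK4 as an enzyme of stamens and pollen.

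The 6 ripe-fruit markers that carried a name (PG2, Psy1, E8, EXP1, TBG4 and RIN) were measured well above background on every array, with summed log2 levels of 63.4 to 63.6 in WT, 63.1 to 64.2 in AS5 and 63.0 to 65.0 in AS17. Background was set on each array as the 95th percentile of 63 control probe sets for reporter genes, and lay between 1.41 and 1.98. AS5 pool 3 and AS17 pool 1 stood apart from the other 7 arrays, at 33.4 and 35.0 on a first principal component where the others scored from -27.2 to 12.5. The 3′ minus 5′ difference of control probe sets reflects RNA quality and is larger in more degraded RNA. For gapdh it was 0.619 and 0.550 in these 2 pools, against 0.830 to 1.06 elsewhere. For ubiquitin this difference was also lowest in both, at 1.12 and 1.36 against 1.41 to 1.75, but for actin it was low in AS5 pool 3 only (0.481), with AS17 pool 1 at 1.08 among the others (0.733 to 1.10). For each member above background, the change for the mean of both lines is given with and without these pools. In bulk mesocarp, fewer cells of a type and less RNA per cell cannot be told apart.

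Of the 6 genes, 5 were above background on all 9 arrays and FRK4 on 0. The hexokinase gene hxk1 had the widest measured difference from WT among the members, in the direction of higher expression in silenced fruit, and FRK2 came next. FRK1, FRK3 and Hxk2 had mean differences of under 0.26 in either direction in each line. In limma, 0 of 6 members passed in any contrast at a Benjamini-Hochberg adjusted p under 0.05 over all 10038 probe sets. The share of all probe sets that passed was 0.379% for AS5 against WT, 1.34% for AS17 against WT, 1.28% for the mean of both lines against WT and 0.00% for AS17 against AS5. At an unadjusted p under 0.05, 0, 1, 1 and 0 of the 6 members were found in these contrasts, where all probe sets gave 9.24%, 17.3%, 15.5% and 5.89%. The 1 member was hxk1 in both cases. Over the 5 members above background, the median change for the mean of both lines was -0.09, against -0.01 over the 8026 probe sets above background on at least 3 arrays.

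**Figure D1:**
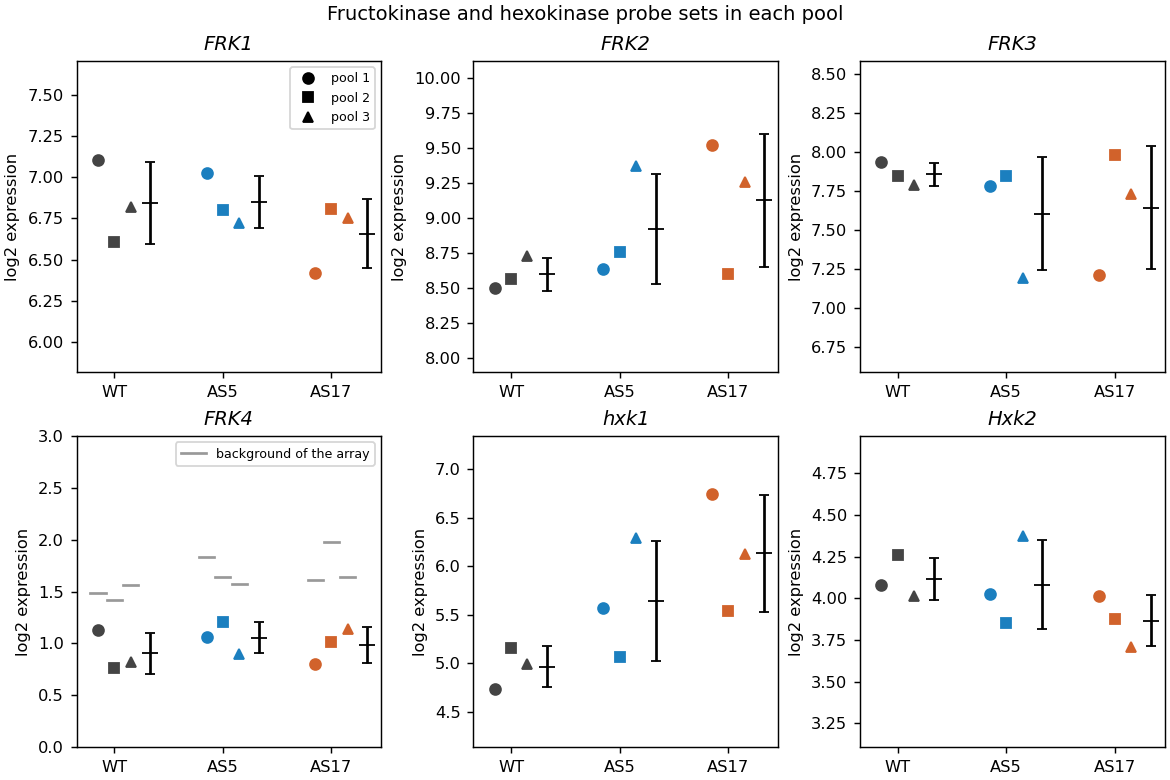
Deposited log2 expression (vertical axis, scaled to each gene) of the 6 members in the 3 pools of WT, AS5 and AS17, with group means and SD as black bars. FRK4 lies below the background of its array (grey ticks, shown in its panel only) in all 9 pools, and the 3 AS17 values of hxk1 lie above its 3 WT values.

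The fructokinase genes are taken first. FRK2, a cytosolic fructokinase that is inhibited by its own substrate at high fructose, stood at 8.50, 8.56 and 8.72 in WT pools 1, 2 and 3. It was at 8.63, 8.76 and 9.37 in AS5 and at 9.52, 8.60 and 9.26 in AS17. AS5 pool 3, AS17 pool 1 and AS17 pool 3 were the 3 highest arrays, while AS5 pools 1 and 2 and AS17 pool 2 were within 0.04 of the range of the WT pools or inside it. The mean was 8.60 ± 0.12 in WT, 8.92 ± 0.39 in AS5 and 9.13 ± 0.48 in AS17 (SD, n = 3 each). The log2 change was 0.33 (SE 0.26, adjusted p = 0.77 in limma) in AS5 and 0.53 (SE 0.26, adjusted p = 0.341) in AS17. For the mean of both lines it was 0.43, with a 95% confidence interval from -0.08 to 0.94. Without AS5 pool 3 and AS17 pool 1 the change was 0.22, with an interval from -0.17 to 0.61. For AS5 alone it was then 0.10 and for AS17 alone 0.33.

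FRK3, the plastid fructokinase, was at 7.93, 7.85 and 7.79 in WT, at 7.78, 7.84 and 7.19 in AS5 and at 7.21, 7.98 and 7.73 in AS17. The groups overlapped, and AS5 pool 3 and AS17 pool 1 were the 2 lowest arrays by more than 0.5. The other 4 silenced pools spanned 7.73 to 7.98, around the WT mean of 7.86 ± 0.07 (SD, n = 3). The change for the mean of both lines was -0.23 (SE 0.20, adjusted p = 0.625 in limma) and became -0.02, with an interval from -0.26 to 0.21, without those 2 pools.

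FRK1, the other cytosolic fructokinase, was at 7.11, 6.61 and 6.82 in WT, at 7.03, 6.80 and 6.72 in AS5 and at 6.42, 6.81 and 6.75 in AS17. WT pool 1 was the highest array and AS17 pool 1 the lowest, and 5 of 6 silenced pools lay within the range of the WT pools. The WT mean was 6.84 ± 0.25 (SD, n = 3), and that SD was larger than those of AS5 (0.16) and AS17 (0.21). The change was 0.01 (SE 0.17) in AS5 and -0.19 (SE 0.17) in AS17. For the mean of both lines the change was -0.09, with a 95% interval from -0.42 to 0.24, and 0.0025 without AS5 pool 3 and AS17 pool 1.

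FRK4 ranged from 0.77 to 1.20 over the 9 arrays, with 1.13, 0.77 and 0.82 in WT, 1.07, 1.20 and 0.90 in AS5 and 0.80, 1.01 and 1.14 in AS17. Each value lay between 0.35 and 0.97 below the background of its own array, so FRK4 was not above background in any group and no change is given.

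Of the hexokinases, hxk1 was the more variable. It stood at 4.74, 5.16 and 4.996 in WT, at 5.57, 5.06 and 6.29 in AS5, and at 6.74, 5.54 and 6.13 in AS17. The 3 AS17 pools were all above the 3 WT pools, which held for 9.10% of all probe sets. AS5 overlapped WT through pool 2, which at 5.06 was below WT pool 2, and so the 6 silenced pools as a whole also overlapped WT. All 6 silenced pools were above the WT mean. The levels ran from 4.97 ± 0.21 in WT through 5.64 ± 0.62 in AS5 to 6.14 ± 0.60 in AS17 (SD, n = 3 each).

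The change of hxk1 was 1.17 (SE 0.36, adjusted p = 0.143 in limma) in AS17 and 0.67 (SE 0.36, adjusted p = 0.628) in AS5, and neither passed. For the mean of both lines it was 0.92 (SE 0.31, unadjusted p = 0.0154, adjusted p = 0.203 in limma), with a 95% interval from 0.22 to 1.62. An exact permutation test of the 6 silenced against the 3 WT arrays, two-sided over 84 arrangements, gave p = 0.0476, where the smallest p it can give is 0.0119. For neighbours in the order of levels, AS5 against WT had an interval from -0.13 to 1.48 and AS17 minus AS5 was 0.50, with an interval from -0.31 to 1.30. The order of the 2 lines was thus not resolved. Without AS5 pool 3 and AS17 pool 1, the 2 highest arrays, the change was 0.61 for the mean of both lines (adjusted p = 0.161 in limma), 0.35 in AS5 and 0.87 in AS17 (adjusted p = 0.0973).

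Hxk2 was at 4.08, 4.26 and 4.01 in WT, at 4.03, 3.85 and 4.37 in AS5 and at 4.01, 3.87 and 3.71 in AS17. The groups overlapped, AS5 pool 3 was the highest array and AS17 pool 3 the lowest. The means were 4.12 ± 0.13, 4.08 ± 0.27 and 3.87 ± 0.15 (SD, n = 3 each). The change was -0.04 in AS5 and -0.25 (SE 0.16, adjusted p = 0.462 in limma) in AS17. For the mean of both lines it was -0.14, with an interval from -0.45 to 0.16, and -0.25, with an interval from -0.507 to -0.000659 (adjusted p = 0.259 in limma), without AS5 pool 3 and AS17 pool 1.

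Between the lines, AS17 minus AS5 was 0.21 for FRK2, with a 95% interval from -0.38 to 0.79, and 0.04 for FRK3, with an interval from -0.48 to 0.55. It was -0.19 for FRK1 and -0.22 for Hxk2, with the same lower bound of -0.57 and upper bounds of 0.19 and 0.14. Each of these intervals includes 0. In the exact permutation test of the 6 silenced against the 3 WT arrays, two-sided, p was 0.119 for FRK2, 0.226 for FRK3, 0.357 for Hxk2 and 0.607 for FRK1. All 6 silenced pools were above the WT mean for FRK2, and 1 of 6 was for each of FRK1, FRK3 and Hxk2.

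**Figure D2:**
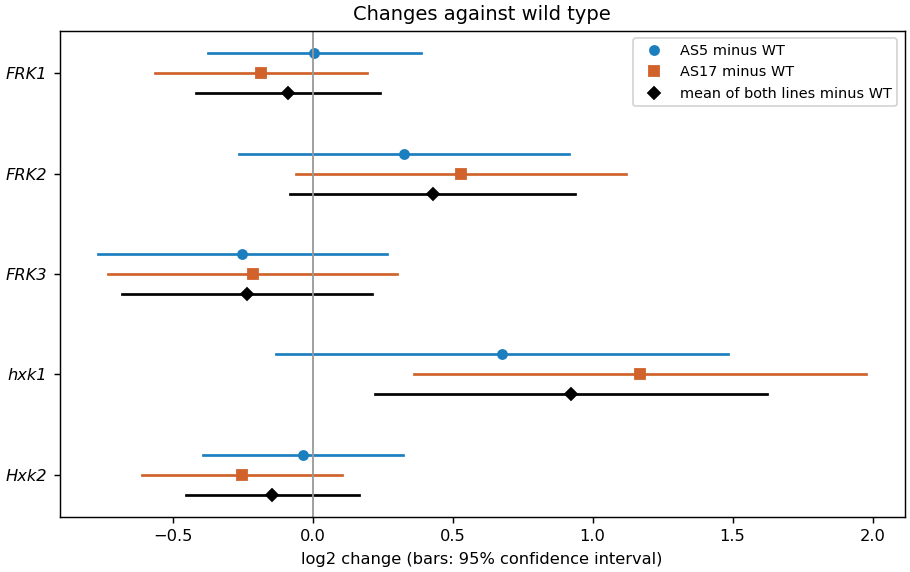
Log2 change (horizontal axis) of the 5 members above background, for AS5, AS17 and the mean of both lines against WT, with limma 95% confidence intervals. Only the AS17 and mean intervals of hxk1 (from 0.36 to 1.98 and from 0.22 to 1.62) lie above 0, and no member passed after adjustment over all probe sets.

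The members differed in how much they varied among silenced pools. The SD over the 6 silenced pools was 0.61 for hxk1, which put it at the 93.8th percentile of the 7315 probe sets above background on all arrays. It was 0.41 for FRK2 (81.4th percentile), 0.34 for FRK3 (71.0th), 0.23 for Hxk2 (40.7th) and 0.20 for FRK1 (30.9th). In the 3 WT pools, the SD was at the 70.7th percentile for hxk1, the 39.7th for FRK2 and the 20.8th for FRK3, all lower than in silenced fruit. For FRK1 it was at the 77.7th and for Hxk2 at the 44.2nd, both higher percentiles than in silenced fruit. Among these 5 members, the SD itself was larger in WT only for FRK1 (0.25 against 0.20). For Hxk2 it was 0.13 in WT against 0.23 in silenced fruit. The silenced spread spans both lines and the 2 outlying pools, and the difference in spread was not tested.

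AS5 pool 3 and AS17 pool 1 were the 2 highest of 9 arrays for FRK2 and hxk1 (a pattern of 11.3% of all probe sets) and the 2 lowest for FRK3 (8.41%). In either form the pattern held for 3 of 6 members and for 19.8% of all probe sets. AS17 pool 3 was the next highest array for FRK2 and hxk1, and the next lowest for FRK3 (7.73). CAB4, a chlorophyll-binding protein and the only green-tissue marker that carried a name, had a like order. It was at 5.40, 5.43 and 4.96 in WT, at 5.15, 5.30 and 6.22 in AS5 and at 6.56, 5.42 and 6.31 in AS17. The part of green tissue in the values of FRK2 and hxk1 was not tested, nor was that of RNA quality. LE16 was the only gene matched to the epidermis list, through another of its names. It stayed near background (1.22 to 2.06) and is not read here as a measure of epidermis. The seed and vascular lists had 0 named genes.

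**Figure D3:**
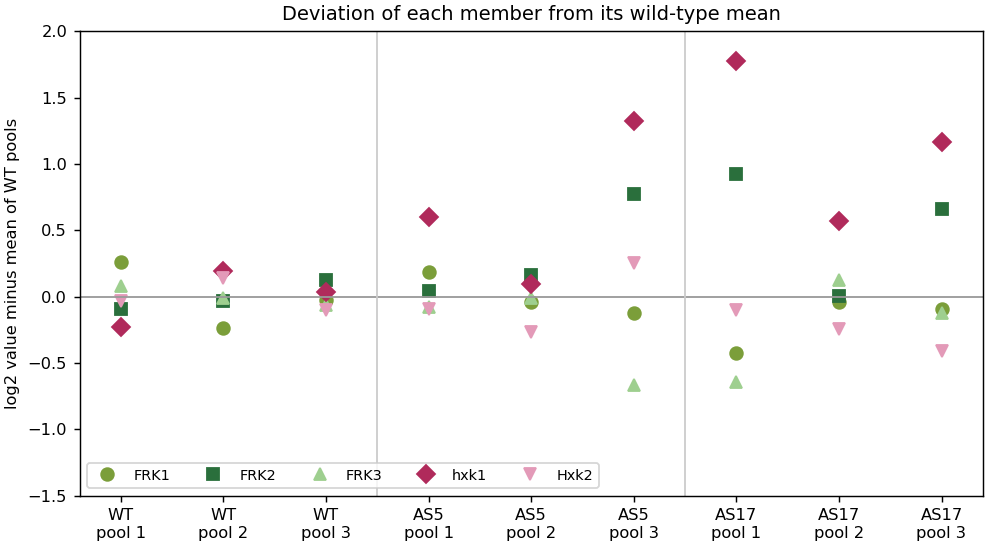
Deviation of each member from its WT mean (vertical axis, log2) in each of the 9 pools (horizontal axis) for the 5 members above background. In AS5 pool 3 and AS17 pool 1, hxk1 and FRK2 are highest and FRK3 is lowest (-0.67 and -0.65). AS17 pool 3 shares the high hxk1 and FRK2 values, while its FRK3 value (-0.12) is below the WT pools by less.

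Across the 9 arrays, FRK2 and hxk1 varied together (Pearson r = 0.91, Spearman rho = 0.75), and FRK3 varied against FRK2 (r = -0.89, rho = -0.87) and against hxk1 (r = -0.83, rho = -0.75). These are descriptions over arrays that share groups and the 2 outlying pools. Without these pools (7 arrays), r was 0.75 for FRK2 with hxk1, -0.68 for FRK2 with FRK3 and -0.46 for FRK3 with hxk1. For hxk1 with Hxk2 the value depended on the arrays and on the group means. It was near 0 over the 9 arrays (r = 0.02, rho = -0.01), -0.63 over the 7 arrays, and 0.76 over the 9 arrays for deviations from group means. FRK2 with Hxk2 also depended on the arrays, at 0.02 over the 9 and -0.76 over the 7. FRK1 had r from -0.65 to 0.60 with the other members over the 9 arrays. Over the 7 arrays its r was -0.33 with FRK2, 0.20 with FRK3, -0.28 with hxk1 and 0.01 with Hxk2.

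Differences between members within an array are free of any scaling that acts on the whole array. Relative to its WT mean, hxk1 minus Hxk2 was -0.19, 0.05 and 0.14 in WT, 0.70, 0.37 and 1.07 in AS5 and 1.88, 0.81 and 1.57 in AS17. All 6 silenced pools were above all 3 WT pools, with a mean difference of 1.07, and this does not rest on the outlying pools. It was the only 1 of the 10 pairs of members without overlap, and was singled out after its values were seen. Among all pairs of 576 named genes above background on all arrays, 14.7% did not overlap, so a pair without overlap is not rare here. FRK2 minus FRK3 was highest in AS5 pool 3, AS17 pool 1 and AS17 pool 3, at 1.44, 1.57 and 0.79 relative to WT. The other 3 silenced pools, from -0.12 to 0.17, were within the WT range of -0.17 to 0.20.

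**Figure D4:**
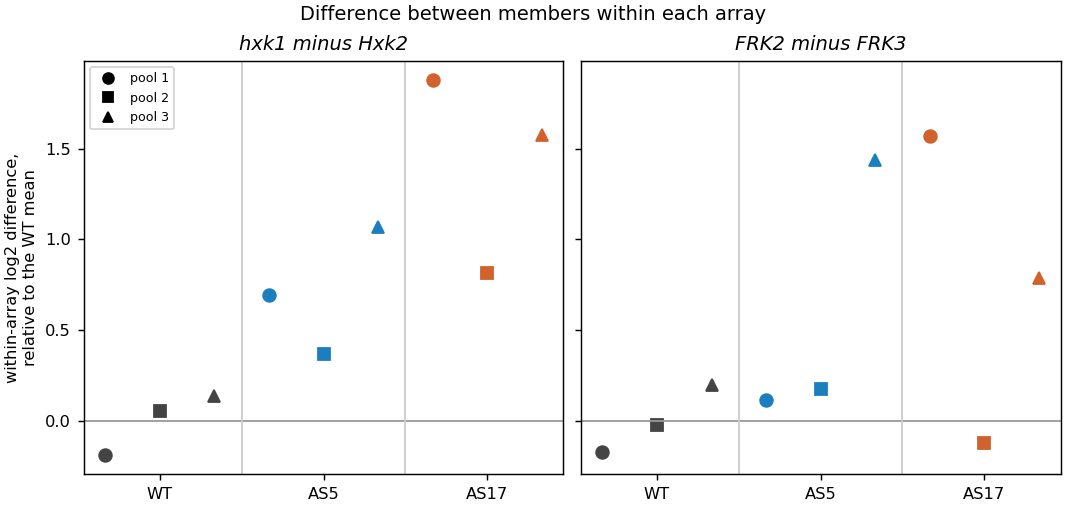
Within-array log2 difference between the hexokinases (left, hxk1 minus Hxk2) and between FRK2 and FRK3 (right), relative to the WT mean, for each pool. The hexokinase difference is from 0.37 to 1.88 in silenced pools and from -0.19 to 0.14 in WT, while FRK2 minus FRK3 overlaps.

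The genes whose values were most like those of a member over the 9 arrays were taken from 575 others with a symbol and above background on all arrays, by Pearson r. For hxk1 they were GMP (r = 0.98), which makes GDP-mannose on the way to ascorbate and cell wall sugars, and PPCK1 (r = 0.98), the kinase that activates phosphoenolpyruvate carboxylase. Without the 2 outlying pools, r was 0.98 and 0.96. For FRK2 they were SAM3 (r = 0.98), an S-adenosylmethionine synthetase, and APX2 (r = 0.97), an ascorbate peroxidase, with 0.94 and 0.91 without those pools. For FRK3 they were ACI29 and BCCP1, a subunit of plastid acetyl-CoA carboxylase (r = 0.96 each). These fell to 0.74 and 0.58 on 7 arrays. For Hxk2 they were POR2 (0.94) and app2 (0.90), at 0.895 and 0.83 on 7 arrays. For FRK1 they were CTR3, a kinase of ethylene signalling (0.88), and MSI1 (0.87), at 0.82 and 0.76 on 7 arrays. With r above 0.9 over the 9 arrays, hxk1 had 27 such genes, FRK2 28, FRK3 9, Hxk2 4 and FRK1 0. These counts include the 2 outlying pools. They were not set beside counts for other named genes, so they are not read as a trait of these members.

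GMP was at 6.07, 6.64 and 6.39 in WT, at 7.05, 6.74 and 7.95 in AS5 and at 8.44, 7.28 and 8.08 in AS17. PPCK1 was at 3.80, 4.01 and 3.84 in WT, at 4.43, 4.04 and 5.01 in AS5 and at 5.38, 4.67 and 4.87 in AS17. For both genes all silenced pools were above all WT pools, as for 4.73% of all probe sets, with AS5 pool 2 the lowest silenced pool and AS17 pool 1 the highest. Both were picked for their r with hxk1 over these same arrays, so a shared order of arrays follows largely from that choice.

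The steps around the kinases were read from 27 other genes in 5 lists, for sucrose cleavage and synthesis (8 genes), sugar transport (5), starch (3), glycolysis and hexose phosphates (6) and sugar signalling (5). For the mean of both lines 1 of 27 passed, SNF4, which encodes a regulatory subunit of the energy sensor SnRK1 and fell, and 0 rose. The same count was found in AS5 and in AS17. Of the 27, 18 were above background on all arrays, 21 on at least 3 and 4 on none. Among the 21, 52.4% of changes were positive, with a median of 0.04. The same share was 48.3% and the median -0.01 over the 8026 probe sets that met this filter.

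SNF4 stood at 3.94 ± 0.23 in WT and 2.08 ± 0.28 in AS5 (SD, n = 3 each), where 2 of 3 pools were above background. In AS17, all 3 pools were at background, which made it at least 4.58-fold lower than in WT (adjusted p = 0.000742 in limma). In sucrose cleavage and synthesis, the smallest p-values were those of SPS (sucrose-phosphate synthase), at -0.28 (SE 0.11), and sus3 (a sucrose synthase), at -0.38 (SE 0.17). Their adjusted p was 0.275 and 0.322 in limma. The other sucrose synthase of this list, LOC543961 (SUS1), went the other way, at 1.33 (SE 0.69, adjusted p = 0.408 in limma). Of the 8 genes in this list, 5 had a positive change. Among these 5 were LIN7, LIN8 and Wiv-1, the 3 that were at background on all arrays, so their changes have no measured size. Of the others, lin5 (0.76, adjusted p = 0.337 in limma) was higher, like LOC543961. AI, an acid invertase (-0.73, adjusted p = 0.326 in limma), was lower, like SPS and sus3. The changes ran from -0.73 to 1.33. In starch synthesis, AgpL1, a large subunit of ADP-glucose pyrophosphorylase, had a change of 1.00 (SE 0.49, adjusted p = 0.374 in limma). It was 0.55 without AS5 pool 3 and AS17 pool 1, and 0.64 without WT pool 1. AGPL3, another large subunit, was at background in all silenced pools and in 2 of 3 WT pools.

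In the list for glycolysis and hexose phosphates, PPCK1, a kinase rather than a glycolytic enzyme, had a change of 0.85 (SE 0.22, adjusted p = 0.121 in limma). PPCK2, in the same list, did not share this change, at 0.05 (SE 0.22, adjusted p = 0.946 in limma). SDH of this list, known as sorbitol dehydrogenase, had a change of -0.39 (SE 0.19, adjusted p = 0.361 in limma). Among transporters, the hexose carrier HT2 was at 0.49 (SE 0.46) and the sucrose carrier SUT4 at 0.14 (SE 0.20). HT2 was above background on 5 of 9 arrays, and its change was 0.15 without AS5 pool 3. In signalling, Sip1 had a change of 0.40 (SE 0.30, adjusted p = 0.578 in limma), which was 0.20 without AS5 pool 3 and 0.13 without AS5 pool 3 and AS17 pool 1. Without AS5 pool 3 and AS17 pool 1, the count for the mean of both lines was 4, all lower. These were SNF4, sus3 (-0.53), SDH (-0.59) and PGH1, an enolase (-0.99), which is named after its values were seen. With all 9 arrays, the change of PGH1 was -0.42 (SE 0.48, adjusted p = 0.731 in limma). For AS17 without those pools the count was 5, with the same 4 lower and PPCK1 higher. The share of all probe sets that passed also rose in this fit, from 1.28% to 2.07% for the mean of both lines and from 1.34% to 3.14% for AS17.

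**Figure D5:**
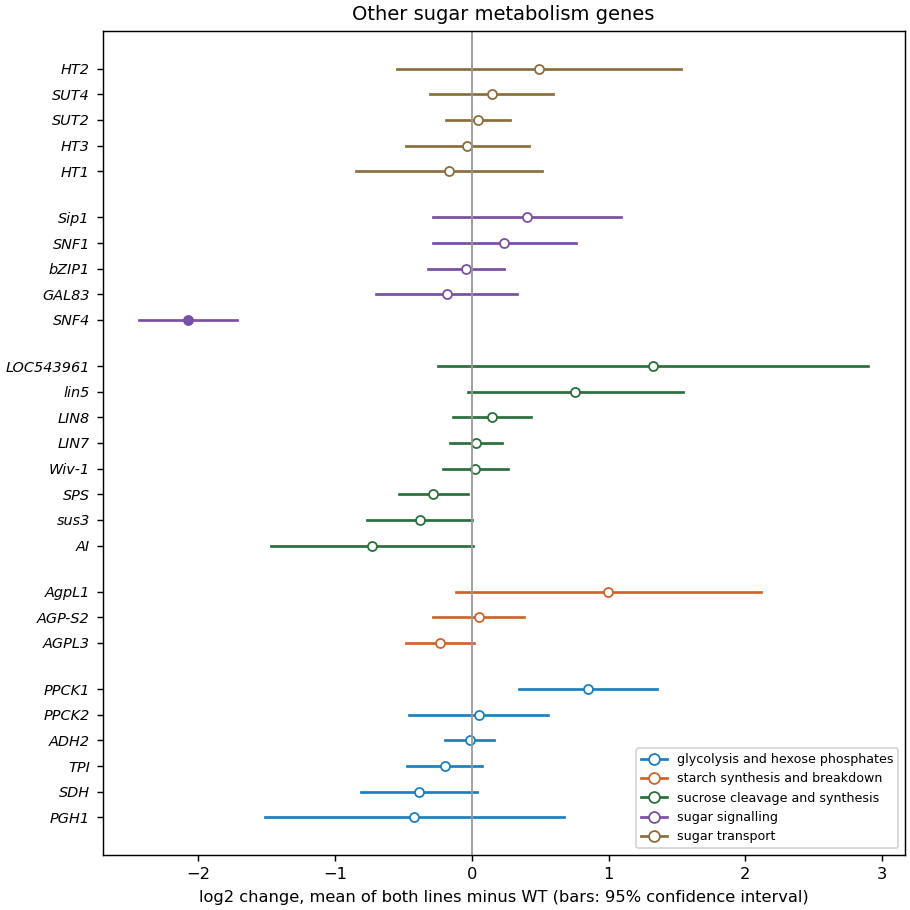
Log2 change of silenced fruit against WT, as the mean of both lines (horizontal axis), of the 27 other sugar metabolism genes, by role (colour), with limma 95% confidence intervals. SNF4 (filled point), whose AS17 pools were all at background so that its plotted change has no measured size, is the only gene that passed.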

How the data were processed

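Expression in 9 pools of ripe fruit mesocarp was measured on Affymetrix tomato arrays. The authors deposited log2 values made with RMA, per the submitters' processing notes, which corrects background, normalises arrays and summarises probes. The version and settings of RMA are not given in the sources used here. There were no detection calls. Of 10209 probe sets, 171 array controls were left out. The platform annotation gave 909 of the remaining 10038 a symbol. The number of arrays limits the precision.

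Limma 3.58.1 in R 4.3.3 was fitted over all 9 arrays with 1 mean per group, and p-values were adjusted by Benjamini-Hochberg over all 10038 probe sets within a contrast. All adjusted p-values and standard errors come from this model. Background per array was the 95th percentile of 63 reporter controls. A fold against a group wholly at background is the WT mean over the mean of the higher of background and value.

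The text names all members, list genes that passed, the 2 genes per list with the smallest p, and the 2 genes most like each member. LOC543961, LIN7, LIN8, Wiv-1, lin5, PPCK2 and list genes that passed only under an alternative are named beyond this rule, after their values were seen. Members and lists were chosen with earlier results of these data known. Alternatives were quantile normalisation, median centring, array weights, a variance trend, robust variances, 2-group fits, a filter on dim probe sets, a block for the pool number, leaving out arrays and an exact permutation test.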

Additional observations from a re-analysis of the deposited data

How the results depend on the processing

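The count of members that passed was 0 under each alternative fit in all 4 contrasts. Each of the 20 member changes had 9 fits with 1 array left out and 9 other alternative fits, and 0 passed in any. The exact permutation test gives no adjusted p and is not in this count. Same-numbered arrays showed no regular likeness, since 2 of 9 such pairs had r above 0.1 in their deviations from group means (-0.38 to 0.55). These deviations sum to 0 within each group, so this check cannot exclude a pairing. With the pool number as a replicate block, 0 members passed. In this balanced design the block cannot move a change, so hxk1 stayed at 0.92 for the mean of both lines (adjusted p = 0.217 in limma). The dim filter, variance trend, robust variances and 2-group fits also leave each change as it was and bear only on p-values. The change of hxk1 kept its sign throughout, from 0.76 to 1.07 with 1 array left out and from 0.61 to 0.95 otherwise for the mean of both lines, at adjusted p from 0.0907 to 0.564. FRK2 also kept its sign for the mean of both lines (0.22 to 0.56). Sign changes touched 5 member changes, of which FRK3 in AS17 was the farthest from 0 (-0.22). FRK1 in AS5 was -0.0259 under median centring, -0.0287 under quantile normalisation and -0.0696 with array weights, and from -0.11 to 0.14 with 1 array left out. FRK1 for the mean of both lines was 0.0025 without AS5 pool 3 and AS17 pool 1, and from -0.21 to 0.0414 with 1 array left out. FRK3 in AS17 was 0.0004 without those pools, and from -0.38 to 0.0004 with 1 left out. FRK3 in AS17 minus AS5 was -0.0266 with array weights, and from -0.17 to 0.25 with 1 left out. Hxk2 in AS5 ran from -0.18 to 0.0812 with 1 left out. Among other genes, HT2 was -0.0037 without the 2 pools and SUT4 ran from -0.068 to 0.34 with 1 left out.

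The count of 1 for the other sugar metabolism genes became 4 for the mean of both lines with array weights (SNF4, sus3, SDH and PPCK1) and 4 without AS5 pool 3 and AS17 pool 1. In AS17 it became 2 with quantile normalisation and 2 with array weights (SNF4 and PPCK1), and 5 without those pools. With 1 array left out it ran from 1 to 2 in AS17, where it was 2 without AS5 pool 3 (PPCK1 added) or AS17 pool 1 (sus3 added), and from 1 to 2 in AS5, where it was 2 without AS5 pool 1 (AI, an acid invertase, added). Over all probe sets, the share that passed for the mean of both lines rose from 1.28% to 5.54% with array weights, and for AS17 it went from 1.34% to 3.1% with array weights and 1.29% with quantile normalisation. The causes were not tested. FRK4 and the genes at background have no measured order, since signal over background limits them.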

Other observations

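The name of the FRK4 probe set ends in A1, while those of the other 5 members end in S1. Of the 2374 tested probe sets with the ending A1, 27.3% were not above background on any array, against 12.9% of the 7660 with the ending S1.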
